A study of Mus musculus with 12 samples.

Results

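The MYC, MAX and MXD network is a family of basic helix-loop-helix leucine zipper transcription factors, followed here in murine W-20 bone marrow stromal cells (BMSCs) exposed to parathyroid hormone (PTH). Its members were chosen as a gene family with earlier results of these data known, and were taken by identifier, as the rows of the count matrix whose Ensembl identifiers belong to Myc, Mycn, Max, Mxd1, Mxd3, Mxd4, Mxi1, Mnt and Mlx, and all 9 were found among the 56980 genes of the matrix. Of these, 8 had enough reads to be tested. Mycn had 0 counts in all 12 libraries, which allows up to 3 counts per library, worth 0.152 to 0.185 CPM (counts per 1000000 scaled counts of a library).

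Bulk RNA-Seq covered 4 groups of 3 libraries. W-20 cells without an introduced gene (WT) received vehicle (PBS) or 50 nM PTH for 2 h, and Y428F cells received the same pair of treatments. Y428F cells are W-20 cells with a stably introduced Flag-tagged YAP in which a tyrosine is replaced by phenylalanine, kept after selection for puromycin resistance, and the study asked how this tyrosine bears on the response to PTH. Library totals ranged from 17127897 to 19057319 counts. The Y428F libraries were grouped by their titles, because their genotype entry reads WT. The study's text describes the sequenced line as also carrying a serine substitution in YAP, which the titles do not name. No library of cells with introduced wild-type YAP or with that serine substitution alone was analysed here, so the tyrosine change and every other difference between the lines cannot be told apart. The counts are per gene and show no base change, and Yap1 itself did not mark the Y428F line by a higher count: its mean was 188.8 ± 7.20 CPM in WT vehicle and 146.5 ± 4.64 CPM in Y428F vehicle (SD, n = 3 each). The labels do not say that replicates were separate cultures, so p-values measure the spread between these libraries, which may be technical.

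MYC binds DNA as a pair with MAX, at the E-box CACGTG, and raises transcription of genes for ribosome assembly, nucleotide synthesis and cell cycle entry. The MXD proteins (Mxd1, Mxd3, Mxd4 and Mxi1) and MNT pair with the same MAX, bind the same site and recruit corepressors with histone deacetylases. MLX is a MAX-like protein that pairs with MNT, MXD1, MXD4 and the glucose-responsive MondoA and ChREBP. PTH acts on BMSCs through its receptor, and YAP is the coactivator held in check by Hippo signaling.

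The E-box is shown here because it is the site all these pairs share. In the RefSeq promoter table (build GRCm38.p6, 250 bases before to 50 after a start site), 8 of the 9 members, Mycn included, had an entry, Myc being the one without. Of those 8, 4 (Max, Mxd4, Mnt and Mlx) held CACGTG, against 8.09% of 27025 genes with an entry. The letters read the same on both strands. The 4 stretches of 30 bases are written 5′ to 3′ on the strand of the gene, with the E-box in capitals. They lie at chr12:76962234-76962263 (minus strand) for Max, chr5:34187912-34187941 (minus) for Mxd4, chr11:74830789-74830818 (plus) for Mnt and chr11:101087238-101087267 (plus) for Mlx. The first base of the E-box lies 3 bases before the start site in Max, 219 in Mxd4, 123 in Mnt and 40 in Mlx.
Max: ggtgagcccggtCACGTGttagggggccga
Mxd4: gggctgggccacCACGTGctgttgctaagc
Mnt: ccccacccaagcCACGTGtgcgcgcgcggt
Mlx: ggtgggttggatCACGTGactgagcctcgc
The cAMP response element TGACGTCA was found in 0 of the same 8, without Myc (2.03% of all genes with an entry), and the TEAD motif GGAATG, searched on both strands, in 0 of the 8 (16.6% of all). These matches describe letters in a window and not occupied sites.

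Levels between genes were compared as CPM per kb of mean coding transcript length. Mxd4 was the most abundant member in each of the 4 groups and Myc the second. In WT vehicle, Mxd4 reached 103.1 ± 1.09 CPM per kb and Myc 23.5 ± 0.72, followed by Max at 20.4 ± 0.73, Mlx at 19.9 ± 0.81, Mnt at 14.4 ± 1.24, Mxd3 at 7.30 ± 1.05, Mxi1 at 6.27 ± 0.62 and Mxd1 at 4.70 ± 0.39 (SD, n = 3 each). The libraries of Max and Mlx overlapped, as did those of Mxd3 and Mxi1, so those neighbors were not ordered beyond their spread. In Y428F vehicle the order had no overlapping neighbors: Mxd4 at 56.0 ± 1.30 CPM per kb, Myc at 34.3 ± 2.06, Mlx at 23.3 ± 0.18, Max at 18.6 ± 0.54, Mxd3 at 14.6 ± 0.40, Mnt at 10.4 ± 0.65, Mxi1 at 5.58 ± 0.20 and Mxd1 at 1.84 ± 0.19. Mxd3 thus stood above Mnt in Y428F vehicle and below it in WT vehicle, and Mxd1 was the lowest expressed member in all 4 groups. Parts of this order depend on the length used. With the exon union length, chosen as an alternative after the values were seen, Mxd3 stood below Mnt in Y428F vehicle too (6.84 ± 0.19 against 7.88 ± 0.49 CPM per kb), Myc stood above Mxd4 in Y428F PTH with overlapping libraries (25.4 to 30.6 against 23.6 to 27.1), and Mxd3 and Mxd1 were level in WT PTH (2.32 ± 0.16 and 2.32 ± 0.11). Max then stood below Mnt in WT PTH without overlap (12.1 to 13.5 against 13.8 to 16.6). In WT vehicle it did so with overlapping libraries (9.97 ± 0.36 against 10.9 ± 0.94). Max also stood below Mlx in both WT groups. In WT vehicle Myc and Mlx overlapped (15.4 to 16.4 and 15.2 to 16.5), and Mxd3 stood below Mxi1 with overlapping libraries (3.41 ± 0.49 against 3.725 ± 0.37).

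**Figure D1:**
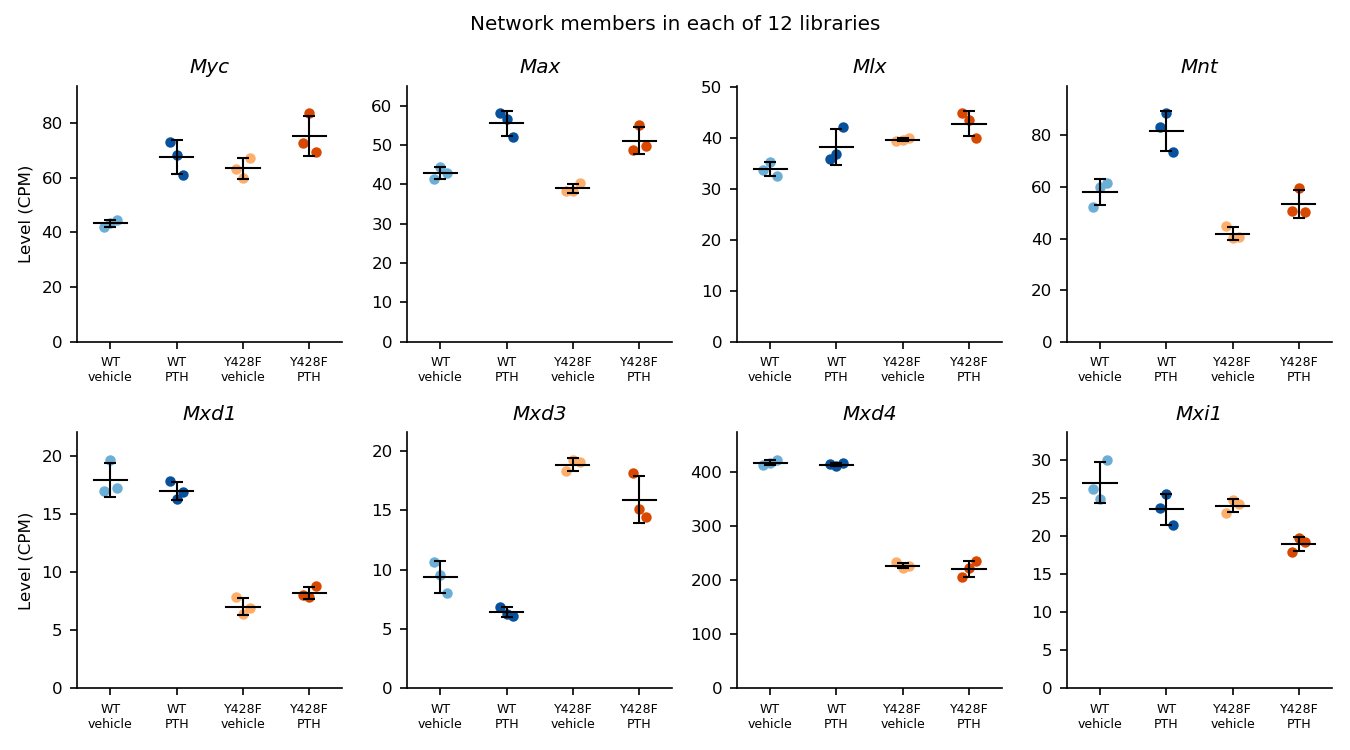
Level of the 8 expressed members in each of 12 libraries, in CPM on the y axis (each panel has its own scale from 0), with WT vehicle, WT PTH, Y428F vehicle and Y428F PTH on the x axis. Points are libraries, the horizontal line is the mean and the bar is the SD (n = 3). Mxd4 and Mxd1 fall into a high pair of WT groups and a low pair of Y428F groups, Mxd3 the other way round, and Myc is lowest in WT vehicle.

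PTH changed 4 of the 8 tested members in WT cells: Myc, Max and Mnt were upregulated and Mxd3 was downregulated. In that comparison 11.8% of the 15583 genes tested were called (edgeR quasi-likelihood test on the 6 WT libraries, Benjamini-Hochberg adjusted p under 0.05), 6.88% higher and 4.91% lower. By a stricter rule, with log2 changes past 0.3 in size and adjusted p-values under 0.01, Myc, Max and Mnt remained, 3 of 8 against 5.27% of all genes. The vehicle and PTH libraries of 5 of the 8 did not overlap, as for 29% of all genes.

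Myc (ENSMUSG00000022346.18, chromosome 15:61857227-61862223 of GRCm39, plus strand), the activating member, measured 42.1, 43.3 and 44.7 CPM in the 3 WT vehicle libraries and 73.1, 68.5 and 61.0 CPM in the 3 WT PTH libraries. The groups did not overlap. The rise was 1.56-fold (log2 fold change 0.65 ± 0.08 SE, adjusted p = 0.000146 by edgeR). Max (ENSMUSG00000059436.14, chromosome 12:76984043-77009009, minus strand), the obligate partner, measured 41.4, 44.5 and 42.9 CPM with vehicle and 58.1, 56.5 and 52.1 CPM with PTH. It too had no overlap and rose 1.30-fold (log2 fold change 0.38 ± 0.07, adjusted p = 0.00445).

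Mnt (ENSMUSG00000000282.13, chromosome 11:74721338-74736836, plus strand), a repressor and competitor of MYC for MAX, moved in the same direction as both. It measured 52.3, 60.2 and 61.6 CPM with vehicle and 83.4, 88.5 and 73.4 CPM with PTH, a 1.42-fold rise without overlap (log2 fold change 0.50 ± 0.08, adjusted p = 0.00165). Mxd3 (ENSMUSG00000021485.15, chromosome 13:55472981-55477908, minus strand), the MXD protein known for its expression in S phase, measured 10.7, 9.55 and 8.00 CPM with vehicle and 6.90, 6.27 and 6.06 CPM with PTH. Each PTH library lay under each vehicle library, and the log2 fold change was -0.55 ± 0.14 (adjusted p = 0.0227). The call was lost without WT vehicle replicate 1 (adjusted p = 0.0767) or 2 (0.0712) and without WT PTH replicate 1 (0.0627), 2 (0.0864) or 3 (0.0634), within a range of 0.00276 to 0.0864 over all alternatives. Mxd3 shares 876 of its 2760 exon bases with Prelid1 on the opposite strand, and the strand setting of the counting was not stated. Prelid1 itself was at 276.7 ± 5.43 CPM in WT vehicle and 272.4 ± 4.37 CPM in WT PTH (log2 fold change -0.02, adjusted p = 0.907).

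The other 4 tested members did not pass. Mxd4 (ENSMUSG00000037235.14, chromosome 5:34331227-34345240, minus strand) measured 412.8, 415.7 and 421.5 CPM with vehicle and 413.6, 410.0 and 415.4 CPM with PTH. The log2 fold change of Mxd4 had a 95% interval of -0.13 to 0.12, the narrowest of the 8. Mxd1 (ENSMUSG00000001156.10, chromosome 6:86624024-86646218, minus strand) had a log2 fold change of -0.07 (interval -0.27 to 0.13), Mxi1 (ENSMUSG00000025025.15, chromosome 19:53298852-53364241, plus strand) of -0.19 (-0.39 to 0.01) and Mlx (ENSMUSG00000017801.16, chromosome 11:100978080-100983043, plus strand) of 0.18 (0.00 to 0.37).

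In Y428F cells PTH again upregulated Myc, Max and Mnt, and here downregulated Mxi1, so 4 of 8 members were called against 12.4% of 17691 genes (6.61% higher, 5.78% lower, edgeR on all 12 libraries). The stricter rule left Max and Mnt, 2 of 8 against 5.32%, and the groups of 7 of the 8 did not overlap, as for 30.8% of all genes. Max measured 38.4, 38.4 and 40.4 CPM with vehicle and 48.7, 55.1 and 49.7 CPM with PTH, without overlap. Its log2 fold change of 0.39 ± 0.07 (adjusted p = 0.000534) lay beside the 0.38 of WT cells. Mnt measured 44.9, 40.2 and 40.6 CPM with vehicle and 50.6, 59.6 and 50.1 CPM with PTH, again without overlap (log2 fold change 0.35 ± 0.09, adjusted p = 0.00888). Without Y428F PTH replicate 2 the adjusted p for Mnt was 0.0512 (5.17e-05 to 0.0512 over the alternatives).

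Myc measured 63.0, 59.8 and 67.3 CPM in Y428F vehicle and 72.8, 83.5 and 69.4 CPM in Y428F PTH. The lowest PTH library stood just above the highest vehicle library. The log2 fold change was 0.25 ± 0.08 (1.19-fold, adjusted p = 0.0348), and the call was lost without Y428F vehicle replicate 1 (0.0968) or 2 (0.161), without Y428F PTH replicate 2 (0.175) and with library totals in place of TMM scaling (0.0644), in a range of 0.00522 to 0.175 over the alternatives. By quantitative PCR, the study measured Myc as a YAP target. It reported a fall with PTH in its cells with the serine and tyrosine substitutions, the opposite direction. The reason was not tested. Mxi1, a repressor that pairs with MAX, measured 23.1, 24.7 and 24.3 CPM with vehicle and 17.9, 19.8 and 19.2 CPM with PTH, without overlap. The log2 fold change of Mxi1 was -0.34 ± 0.09 (adjusted p = 0.0164), and the call was lost without Y428F vehicle replicate 2 (0.061) or 3 (0.05) and without Y428F PTH replicate 1 (0.066), in a range of 0.00549 to 0.066. The values that did not pass were a log2 fold change of -0.25 for Mxd3 (95% interval -0.47 to -0.02, adjusted p = 0.156), 0.23 for Mxd1 (-0.01 to 0.47), 0.11 for Mlx (-0.04 to 0.26) and -0.04 for Mxd4 (-0.16 to 0.07).

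Whether the response to PTH differed between the lines was tested as an interaction, in which 0.413% of 17691 genes were called (0.17% higher and 0.243% lower in Y428F cells). None of the 8 members was (0 by edgeR and 0 by DESeq2), and 1 of them, Myc, had an unadjusted p under 0.05 by either tool. The Myc response was smaller in Y428F cells by 0.39 on the log2 scale (95% interval of the difference -0.62 to -0.17, unadjusted p = 0.00177, adjusted p = 0.188). The adjusted p ranged from 0.0191 with no filter on low counts to 0.526 over the alternatives, and was 0.0356 without Y428F PTH replicate 2. For Max the difference was 0.02 (interval -0.18 to 0.22) and for Mnt -0.15 (-0.39 to 0.10). For Mxd3, called in WT cells only, it was 0.31 (-0.04 to 0.66), and for Mxi1, called in Y428F cells only, it was -0.14 (-0.41 to 0.13), so neither was shown to differ between the lines. Mxd1 gave 0.31 (-0.01 to 0.62).

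More genes were called between the lines than between the treatments, in the network as in the whole matrix. With vehicle, Y428F cells held more Myc, Mxd3 and Mlx and less Mxd1, Mxd4 and Mnt than WT cells, 6 of 8 members against 45.1% of 17691 genes called (22.4% higher, 22.7% lower). With PTH, Mxd3 was higher and Mxd1, Mxd4, Mxi1 and Mnt were lower, 5 of 8 against 45.7% (22.8% higher, 23% lower). By the stricter rule 5 of 8 passed in each, against 31% and 31.6% of all genes. The libraries of the lines did not overlap for 8 of 8 members with vehicle (53.8% of all genes) and for 5 of 8 with PTH (51.9%). The vehicle libraries also enter the PTH comparisons above, so these contrasts share samples.

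Mxd1, an antagonist induced when many cell types differentiate, had the widest gap with vehicle. It measured 17.0, 19.7 and 17.2 CPM in WT vehicle, 17.9, 16.3 and 16.9 in WT PTH, 7.83, 6.37 and 6.94 in Y428F vehicle and 8.04, 7.86 and 8.81 in Y428F PTH. Each of the 6 Y428F libraries lay under each of the 6 WT libraries. The log2 difference was -1.35 ± 0.11 with vehicle (adjusted p = 1.34e-09) and -1.05 ± 0.11 with PTH (adjusted p = 5.31e-08). Mxd4, the most abundant antagonist, fell into the same 2 sets, with 232.3, 222.0 and 225.4 CPM in Y428F vehicle and 204.5, 221.3 and 234.9 CPM in Y428F PTH. Its log2 difference was -0.88 ± 0.06 with vehicle (adjusted p = 4.51e-11) and -0.91 ± 0.06 with PTH (adjusted p = 2.8e-11), a level of 0.54 and 0.53 times that of WT cells. Mnt differed by -0.47 ± 0.08 with vehicle (adjusted p = 0.000106) and -0.61 ± 0.08 with PTH (adjusted p = 2.98e-06), and the libraries given above did not overlap between lines within a treatment.

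Mxd3 went the other way. It measured 18.3, 19.3 and 19.1 CPM in Y428F vehicle and 18.1, 15.2 and 14.4 CPM in Y428F PTH, all above the highest WT library. The log2 difference was 1.00 ± 0.11 with vehicle (2.00-fold, adjusted p = 2.63e-07) and 1.31 ± 0.12 with PTH (2.48-fold, adjusted p = 1.69e-08). Prelid1, the gene it overlaps, was also higher in Y428F vehicle, by 0.26 on the log2 scale (adjusted p = 0.000508), and its part in the Mxd3 value was not tested.

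Myc was higher in Y428F vehicle by 0.55 ± 0.08 (1.46-fold, adjusted p = 6.08e-06), with no library in common range. With PTH the lines overlapped and the difference was 0.16 (95% interval 0.00 to 0.31, adjusted p = 0.101, range 0.0148 to 0.54 over the alternatives). It was called with library totals (0.0148) and without WT PTH replicate 1 (0.0346). Max differed by -0.14 (interval -0.28 to 0.00) with vehicle and -0.12 (-0.26 to 0.02) with PTH, which did not pass, although without Y428F PTH replicate 2 the latter did (-0.19, adjusted p = 0.0348, range 0.0348 to 0.55).

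Mlx measured 33.7, 35.3 and 32.6 CPM in WT vehicle and 39.3, 39.6 and 39.9 CPM in Y428F vehicle, a difference of 0.23 ± 0.07 (adjusted p = 0.0162). The call was lost without WT vehicle replicate 3 (0.0624) or Y428F vehicle replicate 3 (0.057), in a range of 0.00539 to 0.0624. Mlx shares 1109 of its 2137 exon bases with Psmc3ip on the opposite strand, whose own log2 difference was 0.76 (13.1 ± 0.85 against 7.71 ± 0.89 CPM). With PTH the Mlx difference was 0.16 (adjusted p = 0.0811, range 0.0137 to 0.29 over the alternatives), called with library totals (0.0208), with at least 10 counts in every library (0.0441) and without WT PTH replicate 3 (0.0137). Mxi1 differed by -0.17 with vehicle (adjusted p = 0.128, range 0.0485 to 0.506), called without WT vehicle replicate 2 (0.0485). Mxi1 was lower in Y428F cells with PTH by 0.31 on the log2 scale (adjusted p = 0.00849), and at 0.0627 without WT PTH replicate 2 (range 0.00369 to 0.0627).

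**Figure D2:**
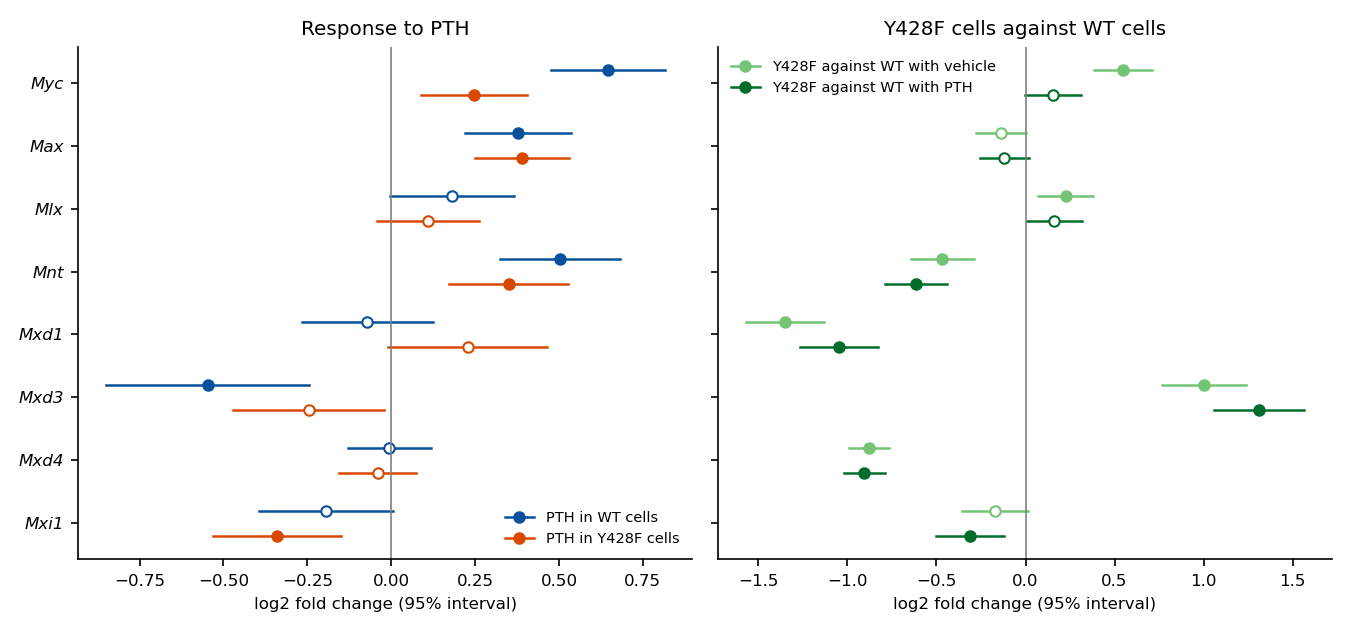
Log2 fold change of the 8 tested members on the x axis with 95% intervals, for PTH against vehicle in each line (left) and for Y428F against WT cells with each treatment (right). Filled points passed an adjusted p under 0.05 and open points did not. Myc, Max and Mnt lie right of 0 in both lines on the left, and Mxd1 and Mxd4 lie left of -0.8 and Mxd3 at or above 1.00 on the right.

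Because these proteins share MAX, the Myc transcript was also expressed as a share of the summed level, per length, of the MAX partners Myc, Mycn, Mnt, Mxd1, Mxd3, Mxd4 and Mxi1. Mga, another MAX partner, and Mycl, a MYC paralog, are not members and were left out of the sum. Mga averaged 2.14 CPM per kb in WT vehicle and 4.63 in Y428F PTH, and Mycl 0.549 and 0.0361. The Myc share is a description of transcripts, with no test. It was 14.5%, 14.7% and 15.0% in WT vehicle, 22.2%, 21.1% and 19.7% in WT PTH, 27.5%, 27.1% and 29.3% in Y428F vehicle and 32.1%, 34.0% and 29.8% in Y428F PTH. The 4 groups did not overlap and stood in that order. Mxd4 made up most of the remainder, with a mean of 64.7% in WT vehicle, 58.8% in WT PTH, 45.6% in Y428F vehicle and 42.8% in Y428F PTH. The summed partners per unit of Max were lower with PTH within each line, going from 7.79 ± 0.23 in WT vehicle to 6.58 ± 0.18 in WT PTH and from 6.61 ± 0.17 in Y428F vehicle to 5.24 ± 0.14 in Y428F PTH. Max, the divisor, rose with PTH in both lines, and the sum itself did not fall. The sum was 156.7 to 161.4 CPM per kb in WT vehicle and 168.1 to 178.1 in WT PTH. In Y428F cells it was 119.6 to 124.5 with vehicle and 122.9 to 133.1 with PTH. The size of the Myc share depends on the transcript length used, and with no length the highest Y428F vehicle library (17.6%) passed the lowest Y428F PTH library (17.5%). The partners per unit of Max depend on it too. With no length their means were 13.3 in WT vehicle, 11.0 in WT PTH, 9.78 in Y428F vehicle and 7.67 in Y428F PTH.

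**Figure D3:**
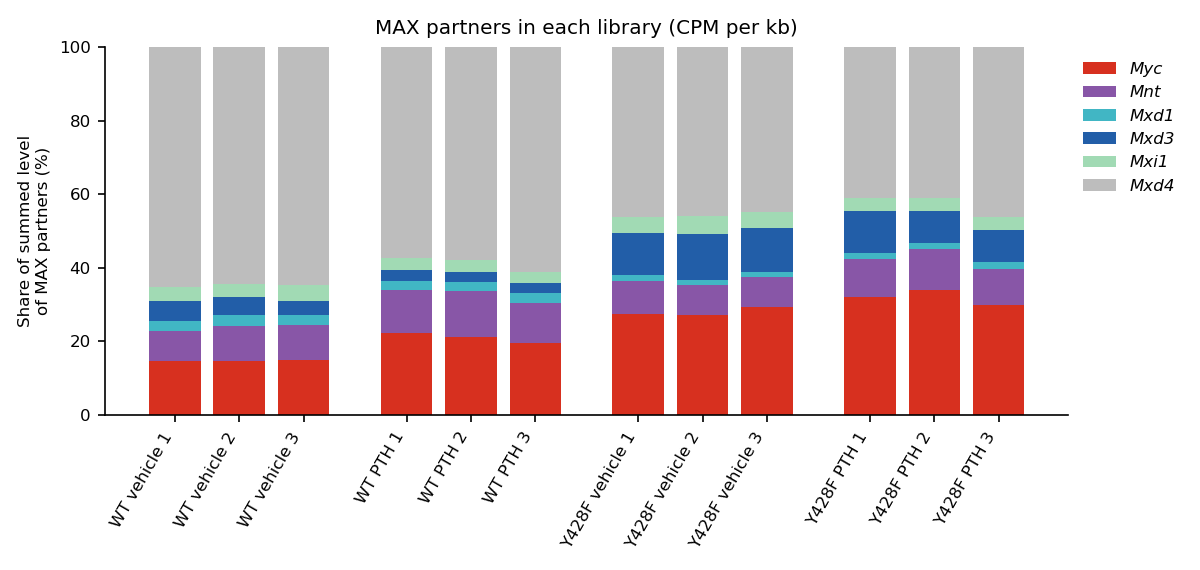
Share of each MAX partner among the network members in the summed level of these partners (%, CPM per kb) in each of 12 libraries. Red marks Myc, which grows from 14.5% to 15.0% in WT vehicle to 29.8% to 34.0% in Y428F PTH, and gray marks Mxd4, which shrinks across the same groups.

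Genes of ribosome assembly, the best known output of MYC, were called upward and never downward with PTH in both lines. Of 36 genes listed for the nucleolus and ribosome assembly, 18 were upregulated and 0 downregulated by PTH in WT cells, against 6.88% of all genes higher, with a median log2 fold change of 0.26 (all genes -0.01). In Y428F cells 15 were upregulated and 0 downregulated, against 6.61% of all genes higher and 5.78% lower, with a median of 0.16 (all genes -0.01). Named from this list by the smallest adjusted p were Ddx21, a helicase of ribosomal RNA transcription and processing (0.66 ± 0.07 in WT, 0.32 ± 0.06 in Y428F), Gnl3, the nucleolar GTPase nucleostemin (0.45 ± 0.07 and 0.61 ± 0.06), and Wdr43, a small-subunit assembly factor (0.48 ± 0.06 in both). Rrp12 was named in WT cells (0.58 ± 0.10) and Rrs1 in Y428F cells (0.41 ± 0.07). The WT count of 18 was 11 without WT vehicle replicate 3, 10 without WT PTH replicate 1 and 11 without WT PTH replicate 2, while all genes called dropped from 1837 to 1045, 905 and 1060. The Y428F count of 15 was 11 without Y428F vehicle replicate 1, 10 without Y428F vehicle replicate 2 and 10 without Y428F PTH replicate 1, while all genes called dropped from 2192 to 1435, 1479 and 1659. For a difference in response between the lines, 0 of 36 were called by edgeR and 0 by DESeq2, beside 0.413% of all genes, and 4 had an unadjusted p under 0.05.

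The same list stood higher in Y428F cells than in WT cells before PTH. With vehicle 32 of 36 genes were higher and 0 lower, against 22.4% of all genes higher, with a median log2 difference of 0.43 (all genes 0.01). With PTH 31 were higher and 0 lower, against 22.8% of all genes higher, with a median of 0.415 (all genes 0.019). Myc itself differed by only 0.16 between the lines with PTH and was not called (edgeR adjusted p = 0.101). Whether the list follows Myc was not tested. With vehicle, Ddx21 differed by 1.07 ± 0.06, Bop1, a factor of the large ribosomal subunit, by 0.90 ± 0.06, Pa2g4 by 0.87 ± 0.06 and Nop56, a core protein of box C/D small nucleolar particles, by 0.83 ± 0.06. In the promoter table, 23.3% of the 30 genes of this list with an entry held CACGTG, against 8.09% of all genes. This share was not particular to the list. It was 24.0% for the metabolic and 22.2% for the cell cycle genes described below, and no lower for the glucose-responsive genes. It was 9.09% for MYC cofactors and 7.14% for genes of MYC turnover, and 0 of 8 genes repressed through MYC held it. The cAMP response element was found in 6.67% of the same 30 genes, against 2.03% of all. These shares were not tested.

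Fewer metabolic genes were called with PTH than between lines. Of 27 listed for nucleotide, polyamine and glucose metabolism, PTH upregulated 5 in WT cells and 3 in Y428F cells and downregulated 0 in both, against 6.88% and 6.61% of all genes higher. Slc2a1, the glucose transporter GLUT1, rose by 0.59 ± 0.07 in WT and 0.30 ± 0.06 in Y428F cells, Ctps1, a CTP synthase, by 0.38 ± 0.07 and 0.46 ± 0.06, and Srm, the spermidine synthase, by 0.39 ± 0.07 and 0.26 ± 0.06. Hk2, a hexokinase, was named in WT cells (0.56 ± 0.10). Between lines with vehicle, 20 of the 27 were higher and 1 lower in Y428F cells (22.4% and 22.7% of all genes), with a median of 0.51. Tfrc, the transferrin receptor, was higher by 2.01 ± 0.08, Ldha, which makes lactate, by 1.24 ± 0.05, and the glycolytic Eno1 by 0.96 ± 0.06.

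Of 12 cell cycle genes listed as MYC targets, 2 rose and 1 fell with PTH in each line, beside 11.8% and 12.4% of all genes called, with medians of -0.09 and 0.04. The largest change was that of Id2, an inhibitor of basic helix-loop-helix factors, at 2.52 ± 0.17 in WT and 1.61 ± 0.12 in Y428F cells, from 1.96, 2.96 and 1.99 CPM to 13.6, 11.9 and 13.7 CPM in WT libraries. The other calls were small, Cks2 (-0.30) and Cul1 (0.19) in WT cells and Ccnd1 (-0.22) and Cdc25a (0.23) in Y428F cells. None of these 4 calls held throughout. Cks2 lost its call without any WT vehicle replicate and without WT PTH replicate 1 or 2 (adjusted p up to 0.208). Cul1 lost its call with library totals (0.156) and with the replicate block (0.121). The Cul1 call was also lost without WT vehicle replicate 2 or 3 and without WT PTH replicate 1 or 2. Ccnd1 lost it without Y428F vehicle replicate 1 or Y428F PTH replicate 1 or 3 (up to 0.0859), and Cdc25a with library totals and without any of the 6 Y428F libraries (up to 0.102). Between lines with vehicle 9 were higher and 1 lower in Y428F cells (22.4% and 22.7% of all genes), among them the replication helicase gene Mcm5 (0.96 ± 0.06), cyclin D1 (Ccnd1, 0.93 ± 0.06) and E2f2 (1.68 ± 0.15).

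Genes that MYC is known to repress moved in both directions with PTH. Of 12, PTH upregulated 1 and downregulated 3 in WT cells (6.88% and 4.91% of all genes) and upregulated 2 and downregulated 2 in Y428F cells (6.61% and 5.78%). Thbs1, the matrix protein thrombospondin 1, rose by 1.33 ± 0.10 and 0.87 ± 0.10. Gadd45a, a growth arrest gene, fell by 0.74 in WT and by 0.51 in Y428F cells, and Cdkn2b, an inhibitor of CDK4 and CDK6, fell by 0.32 and by 0.22, calls lost without WT PTH replicate 1 or 2 (adjusted p up to 0.0734) and without Y428F vehicle replicate 1 or 3 or Y428F PTH replicate 2 or 3 (up to 0.132). Cdkn1a (p21) fell by 0.66 in WT cells (adjusted p = 0.0115), a call lost without WT vehicle replicate 3 (0.0529, range 1.25e-05 to 0.0529). Between lines with vehicle 8 of the 12 were lower and 1 higher in Y428F cells, beside 22.7% of all genes lower and 22.4% higher, with a median of -0.55. Cebpa, the adipogenic factor, differed by -2.24 ± 0.09 and the stromal receptor Pdgfrb by -1.51 ± 0.09, and both are also listed among the cell markers below.

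**Figure D4:**
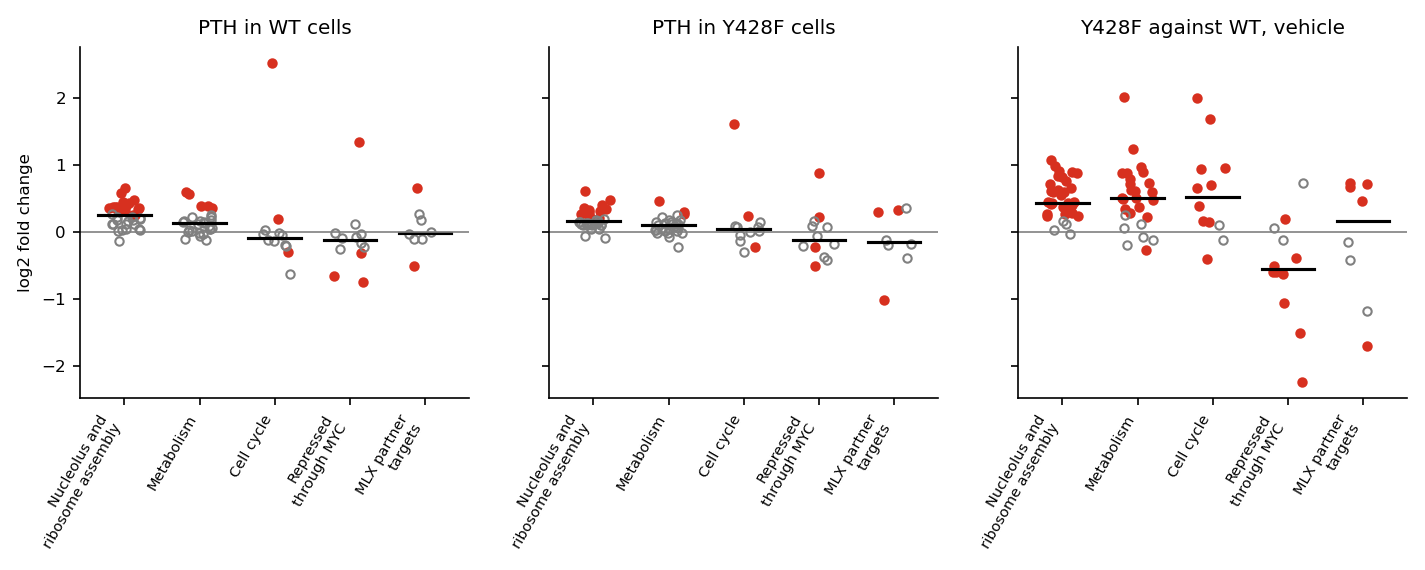
Log2 fold change of each gene of 5 lists on the y axis, for PTH in WT cells, PTH in Y428F cells and Y428F against WT cells with vehicle. Red points passed an adjusted p under 0.05, open points did not, and the black line is the list's median, which for the nucleolus list is 0.26, 0.16 and 0.43.

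Among other factors that bind MYC, MAX or MLX or the same site, Mycl, Mga, Mlxip, Mlxipl, Zbtb17, Tfap4, Usf1 and Usf2 were listed and 7 were tested, Mlxipl being at 0 counts. Mga, a large MAX partner, rose with PTH in WT cells by 0.31 ± 0.08 (adjusted p = 0.024), a call lost with library totals and without WT vehicle replicate 2 or 3 or WT PTH replicate 1 or 2 (adjusted p up to 0.0944, range 0.0106 to 0.0944). This was 1 of 7 beside 11.8% of all genes. With PTH in Y428F cells edgeR called 0 of the 7 and DESeq2 1, beside 12.4% of all genes, and 2 had an unadjusted p under 0.05. Mga was higher in Y428F cells by 0.86 ± 0.09 with vehicle and 0.81 ± 0.09 with PTH, while Usf2 was lower by 0.30 and 0.27 on the log2 scale. Mycl, a MYC paralog, was lower in Y428F cells with either treatment (adjusted p = 3.53e-05 and 8.17e-06), with 20 to 40 counts in each WT library and 0 to 6 in each Y428F library. These 3 of 7 stood beside 45.1% of all genes called with vehicle and 45.7% with PTH. Of 12 MYC cofactors, PTH changed 1 in WT cells (11.8% of all genes), Wdr5, a chromatin adaptor of MYC (0.32 ± 0.06), and 0 in Y428F cells (1 by DESeq2, 3 at an unadjusted p under 0.05). Between lines with vehicle 5 were higher and 2 lower, beside 22.4% and 22.7% of all genes, with Skp2, a ubiquitin ligase subunit, at 0.65 ± 0.07 and the helicase Ruvbl2 at 0.49 ± 0.07.

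Of 10 corepressors that MXD proteins and MNT recruit, PTH raised Rbbp7 in WT cells (0.22, adjusted p = 0.0283) and lowered Sin3a, the scaffold that MXD proteins bind, in Y428F cells (-0.25, adjusted p = 0.0121), 1 of 10 in each line beside 11.8% and 12.4% of all genes. Rbbp7 lost that call with library totals, with the replicate block (0.0687) and without WT vehicle replicate 2 or 3 or WT PTH replicate 1 (adjusted p up to 0.114, range 0.00602 to 0.114). Between lines with vehicle Rbbp7, Hdac2, Sap18 and Hdac1 were higher in Y428F cells, by 0.53, 0.54, 0.41 and 0.30, a count of 4 of 10 beside the 45.1% of all genes. Of 15 genes of MYC protein turnover, PTH lowered Trib3 and Aurka in WT cells (-0.58 and -0.37) and Trib3 in Y428F cells (-0.50), shares of 13.3% and 6.67% beside 11.8% and 12.4% of all genes, and 6 were higher and 1 lower in Y428F vehicle, a share of 46.7% near the 45.1% of all genes, led by the kinase Aurka at 1.02 ± 0.09. Aurka lost its call with PTH in WT cells without WT vehicle replicate 1 or 3 or any WT PTH replicate (adjusted p up to 0.146, range 0.00116 to 0.146).

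MLX and its partners act on glucose-responsive genes, of which 8 of 10 listed were tested, Pklr and Thrsp being too low. Txnip, an inhibitor of glucose uptake, fell with PTH in both lines and further in Y428F cells. It measured 208.3, 244.8 and 233.4 CPM in WT vehicle, 153.8, 151.2 and 173.1 in WT PTH, 71.1, 70.0 and 69.1 in Y428F vehicle and 37.1, 31.7 and 35.2 in Y428F PTH. The 4 groups did not overlap. The log2 fold change with PTH was -0.51 ± 0.08 in WT and -1.02 ± 0.08 in Y428F cells, and the line difference was -1.71 ± 0.07 with vehicle and -2.20 ± 0.08 with PTH. Its interaction was -0.49 ± 0.10 (adjusted p = 0.0299, range 8.67e-05 to 0.11 over the alternatives), lost without WT vehicle replicate 3, WT PTH replicate 1 or 3, any Y428F vehicle replicate, or Y428F PTH replicate 2 or 3. Pfkfb3, a glycolytic regulator, rose with PTH by 0.66 ± 0.09 in WT cells and by 0.33 ± 0.10 in Y428F cells, the latter at an adjusted p of 0.0286 that reached 0.124 over the alternatives, without Y428F vehicle replicate 1 or 2 or Y428F PTH replicate 1 or 2. Klf10 was the third call with PTH in Y428F cells (0.29 ± 0.09), lost with library totals, without any Y428F vehicle replicate and without Y428F PTH replicate 1 or 3 (adjusted p up to 0.114). Of the 8, PTH changed 2 in WT cells and 3 in Y428F cells, beside 11.8% and 12.4% of all genes. Between the lines, 4 were higher and 1, Txnip, was lower in Y428F cells with vehicle, and 4 were higher and 3 lower with PTH, beside 22.4% and 22.7%, then 22.8% and 23%, of all genes. The higher ones included the lipid synthesis genes Elovl6 (0.71 ± 0.06 with vehicle) and Acaca (0.67 ± 0.07) and Klf10 (0.73 ± 0.09).

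Other gene groups moved between the lines together with the network, and their part in its values was not tested. All 10 proliferation markers were higher in Y428F than in WT cells with either treatment (medians 1.10 and 1.17 on the log2 scale), beside 22.4% and 22.8% of all genes, with summed levels of 977.5, 824.6 and 894.6 CPM in WT vehicle and 1819, 1852 and 1829 CPM in Y428F vehicle, Top2a being the most abundant. With PTH edgeR called 0 of 10 in either line, beside 11.8% and 12.4% of all genes, with 2 at an unadjusted p under 0.05 in WT and 4 in Y428F cells, and DESeq2 called 0 and 2. Of 10 stromal markers 9 were tested, Thy1 being at 0 counts, and all 9 were lower in Y428F vehicle and 8 in Y428F PTH, beside 22.7% and 23% of all genes. Their summed level, led by Col1a2, was 20160, 22090 and 23760 CPM in WT vehicle and 15020, 13950 and 14060 CPM in Y428F vehicle. In bulk RNA, fewer cells of a type and less RNA per cell cannot be told apart.

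Markers of blood, endothelial, epithelial and mature bone cells were low. The 5 blood cell markers, with Cd3e at 0 and Ptprc the most abundant, summed to 1.72 ± 0.19 CPM in WT vehicle and 6.50 ± 0.65 CPM in Y428F vehicle, and 2 of the 4 tested, Ptprc and Lyz2, were higher in Y428F vehicle, beside 22.4% of all genes. The 3 endothelial markers, led by Cdh5, summed to 0.882 ± 0.27 and 8.29 ± 0.78 CPM, and the 3 epithelial markers, led by Krt8 with Epcam at 0, to 0.624 ± 0.31 and 3.66 ± 0.77 CPM. Called higher in Y428F vehicle were 1 of 3 endothelial and 2 of 2 tested epithelial markers, beside 22.4% of all genes. Mature osteoblast markers summed to at most 0.2275 CPM in any library. Adipocyte markers were higher, with Cebpa at 46.1 CPM in WT vehicle beside 43.3 CPM for Myc. Of these markers Adipoq was at 0, Fabp4 and Cebpa were lower and Pparg was higher in Y428F vehicle, and PTH raised Pparg in both lines, the summed level being 104.8 ± 3.26 CPM in WT vehicle, 111.7 ± 4.60 in WT PTH, 56.3 ± 1.59 in Y428F vehicle and 82.6 ± 1.75 in Y428F PTH.

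Chromosome medians were smaller in size than the differences of the members called there, though for Mlx the values lay close (0.23 against 0.18). A median over many genes does not give the spread of single genes, so this is a description. The median log2 difference between lines with vehicle was 0.20 over 433 genes of chromosome 15, which holds Myc, -0.16 over 503 genes of chromosome 6, which holds Mxd1, 0.10 over 369 genes of chromosome 13, which holds Mxd3, -0.02 over 674 genes of chromosome 5, which holds Mxd4, and 0.18 over 860 genes of chromosome 11, which holds Mnt and Mlx. In the same order of chromosomes, 72.1%, 36.2%, 59.6%, 48.1% and 67.6% of these genes had a positive difference.

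The genes whose pattern over the 12 libraries lay closest to that of Myc were Rock2, Gdnf, Coro1c, Myo1c and Cited2. Likeness was the root mean square difference of log2 CPM, each gene centered on its own mean, over the 9103 genes averaging 10 CPM or more. It was 0.0712 for Rock2, 0.0725 for Gdnf, 0.0767 for Coro1c, 0.0857 for Myo1c and 0.0872 for Cited2, against a median of 0.352 over all. Rock2, a kinase of the actin cytoskeleton, had group means of 110.1, 176.9, 157.8 and 198.0 CPM in WT vehicle, WT PTH, Y428F vehicle and Y428F PTH, beside 43.3, 67.5, 63.4 and 75.2 CPM for Myc. These libraries share their scaling and their lines, and the closeness is a description over 4 group levels.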

How the data were processed

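Bulk poly-A RNA-Seq of 12 libraries was analysed. The authors mapped reads with STAR 2.7.10b to GRCm39 (GENCODE vM31 basic) and deposited RSEM expected counts per gene, not scaled for library size; expected counts were rounded to whole numbers here. The strand setting and RSEM version were not given in the sources used here. Tests used edgeR 4.0.16 in R 4.3.3 (TMM scaling, total of at least 10 counts, quasi-likelihood test, Benjamini-Hochberg over all genes tested, calls at an adjusted p under 0.05), on the 6 WT libraries for PTH in WT cells and on all 12 otherwise. DESeq2 1.42.0 was an alternative, as were other scalings, filters, a stricter call rule, the replicate block and leaving out each library. The scripts were tested on simulated data. CPM were TMM-scaled, and levels per kb used the mean length of a gene's coding transcripts (GENCODE vM39). Library totals of 17127897 to 19057319 set the counting precision: Mxd1, the expressed member with the fewest counts in total, had 126 to 346 counts per library, and Mxd3 had 102 to 381.

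Besides the 9 members and Yap1, the text names up to 4 genes per list and comparison, those called with the smallest adjusted p and a mean of at least 10 CPM in a compared group, and the 5 genes most like Myc. Marker genes, overlapping genes, Mycl and Id2 library values were named outside that rule. The members and lists were chosen with earlier results of these data known. Lists are described by counts and medians without a set test.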

Additional observations from a re-analysis of the deposited data

Results flagged for a closer look

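Txnip met the test of a difference between the lines: its response to PTH was more negative in Y428F than in WT cells by -0.49 ± 0.10 on the log2 scale (edgeR interaction, adjusted p = 0.0299, 95% interval -0.71 to -0.28), and it fell in both lines. The direction held in 18 of 18 alternatives, with adjusted p from 8.67e-05 to 0.11. The call was lost without WT vehicle replicate 3, WT PTH replicate 1 or 3, any Y428F vehicle replicate, or Y428F PTH replicate 2 or 3. Groups of 3 libraries were not examined for outlying samples.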

How the results depend on the processing

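Of 536 values of network members under alternative settings, 497 kept their direction and their side of the threshold, 16 lost and 9 gained a call, and 14 changed sign, all of the latter near 0 and uncalled. The members called numbered 3 to 4 (PTH in WT cells), 2 to 4 (PTH in Y428F cells), 5 to 7 (line difference with vehicle), 4 to 6 (with PTH) and 0 to 1 (difference in response) when each library was left out. PTH in Y428F cells gave 2 at an adjusted p under 0.01 with a log2 fold change beyond 0.3, and the difference in response gave 1 with no filter on low counts, Myc. The line difference with PTH gave 7 with library totals, Myc and Mlx being the added calls. Signs changed for Mxd4 with PTH in WT cells (7.92e-06 with DESeq2 size factors, 1.46e-05 with the DESeq2 Wald test, -0.0127 to 0.0117 without a library), Mxd1 with PTH in WT cells (-0.0947 to 0.00287), Mxd4 with PTH in Y428F cells (-0.0878 to 0.0117) and, for the difference in response, Max (-0.0462 to 0.0588), Mxd4 (-0.0836 to 0.016) and Mlx (-0.107 to 0.0119); the cause was not tested. The Myc share of MAX partners was 18.8%, 25.8%, 33.9% and 37.9% (WT vehicle, WT PTH, Y428F vehicle, Y428F PTH) with exon union length and 7.57%, 11.1%, 16.6% and 19.2% with no length, in the same order of group means, the Y428F groups overlapping with no length. Exon union length also took below 1 the ratio of Mxd4 to Myc in Y428F PTH (to 0.923), of Mxd3 to Mnt in Y428F vehicle (to 0.868) and of Mxd3 to Mxd1 in WT PTH (to 0.999). By this length the mean of Max lay below that of Mnt in WT vehicle (9.97 against 10.9 CPM per kb) and WT PTH (12.9 against 15.4). The mean of Max also turned below that of Mlx in both WT groups, and Mxd3 below Mxi1 in WT vehicle. Library totals moved the median of all genes by at most 0.067, but the share of higher genes among all those called went from 58.4% to 38% (PTH in WT cells) and from 53.4% to 38.1% (PTH in Y428F cells). All genes called for the difference in response numbered 73, 123 by the DESeq2 Wald test, 216 with no filter, and 24 to 89 without a library.

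Replicate numbers in the titles did not pair the libraries in general (mean correlation of same-numbered deviations 0.0407 over 18 pairs of libraries, -0.263 to 0.458). Same-numbered libraries of WT vehicle and Y428F PTH correlated at 0.4575, 0.223 and 0.135. Those of WT vehicle and WT PTH did so at -0.139, 0.159 and -0.263. With the replicate block, the members called stayed at 4, 4, 6, 5 and 0 for the comparisons in the order above. It ended the calls of Cul1 (adjusted p = 0.121) and Rbbp7 (0.0687) with PTH in WT cells and no call of a network member.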
